A study of Homo sapiens with 6 samples.

Results

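The transforming growth factor beta (TGF-beta) genes described here were 9 of the 58884 genes in a deposited RNA-seq table, chosen by symbol: the ligand genes *TGFB1*, *TGFB2* and *INHBA*, the receptor genes *TGFBR1*, *TGFBR2* and *TGFBR3*, the signal transducer *SMAD3*, the inhibitor *SMAD7* and the response gene *TGFBI*. Each symbol stood in the table once, and all 9 genes were expressed enough to be tested. RNA came from untreated cultures of 2 human cell lines, with 3 libraries each. KYSE70 is an established esophageal squamous cell carcinoma (ESCC) line with a gain-of-function mutation in *NFE2L2*, the gene of the transcription factor NRF2. NRF2null-KYSE70 was grown from a single KYSE70 cell after CRISPR-Cas9 cutting of *NFE2L2* left a frameshift. Because it was 1 clone, effects of NRF2 loss cannot be told apart from other features of that clone. The study noted that a faint, smaller NRF2 band remained on its immunoblots. In bulk RNA of this kind, fewer cells of a type and less RNA per cell cannot be told apart. Nothing in the labels said whether the libraries of a line came from separate cultures, so the p-values measured the spread between these libraries.

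TGF-beta is made as a latent dimer that stays bound to its own propeptide, and often to a latent TGF-beta binding protein, until integrins, proteases or thrombospondin release it. The free ligand joins a type II receptor (*TGFBR2*) to a type I receptor (*TGFBR1*). The type I receptor then phosphorylates SMAD2 and SMAD3, which enter the nucleus with SMAD4 and act on genes that carry short SMAD boxes. SMAD7 is an inhibitory SMAD that is itself induced by the pathway and brings ubiquitin ligases to the receptor. In normal squamous epithelium the pathway is known for restraining proliferation, whereas in carcinomas it is also known for inducing matrix, migration and loss of epithelial features.

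The 6 libraries held between 52072801 and 63975313 reads assigned to genes. *NFE2L2* (ENSG00000116044) fell from 9928 ± 102 normalized counts in KYSE70 to 6093 ± 319 in NRF2null-KYSE70 (SD, n = 3 each), with no overlap between lines and a log2 fold change of -0.71 (limma adjusted p = 9.37e-08, SE 0.049). All 9 squamous epithelial markers were expressed in both lines, at summed levels of 330512 to 341640 normalized counts in KYSE70 and 264576 to 281709 in NRF2null-KYSE70. The sum followed *KRT5*, with means of 209917 and 124640. *KRT5*, *TP63*, *DSG3* and *DSC3* had log2 fold changes of -0.75, -0.92, -0.74 and -0.33. The other 5 of the 9 markers (*KRT6A*, *KRT17*, *EPCAM*, *CDH1* and *ITGB4*) had log2 fold changes of 0.30 to 0.89. Of 7 fibroblast markers, *COL1A2*, *DCN* and *PDGFRA* were at the floor of detection (3 reads or fewer in each library), and the summed level was 1384 to 1618 in KYSE70 and 485 to 638 in NRF2null-KYSE70, most of it *COL1A1*. Of 4 endothelial markers only *VWF* was above the floor in any library, with a sum of 133 to 149 in KYSE70 and 275 to 450 in NRF2null-KYSE70. Among leukocyte markers *CD3E* was at the floor, and the summed level was 0 to 12.7 in KYSE70 and 42.2 to 58.2 in NRF2null-KYSE70, where *PTPRC* had a mean of 43.6 normalized counts.

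Expression of the 9 genes was compared between the lines to show which steps of the pathway differed at the RNA level. *SMAD3* and *TGFBI* had means 2.20 and 2.49 times as high in NRF2null-KYSE70 as in KYSE70 and were the 2 members past the threshold used here, a limma adjusted p under 0.05 together with a log2 fold change of 1 or more in either direction. *TGFB2*, *TGFBR2*, *INHBA* and *TGFBR1* were higher by smaller steps, with an adjusted p under 0.05. *TGFB1*, *SMAD7* and *TGFBR3* did not pass on the adjusted p. Over all 15994 genes tested, 14.7% were past the threshold in either direction 7.23% as higher and 7.43% as lower in NRF2null-KYSE70. On the adjusted p alone, 6 of the 9 members were higher and 0 were lower, where the same test called 29.3% of all genes higher, 28.3% lower and 57.6% in all. No member was lower at an unadjusted p under 0.05 in limma, or by the adjusted p of DESeq2 or edgeR. The libraries of the lines were fully apart for 6 of the 9 members, all higher, as they were for 63.4% of all genes (32.1% higher and 31.3% lower). The median log2 fold change of the members was 0.47, beside -0.0070 over all genes tested.

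**Figure D1:**
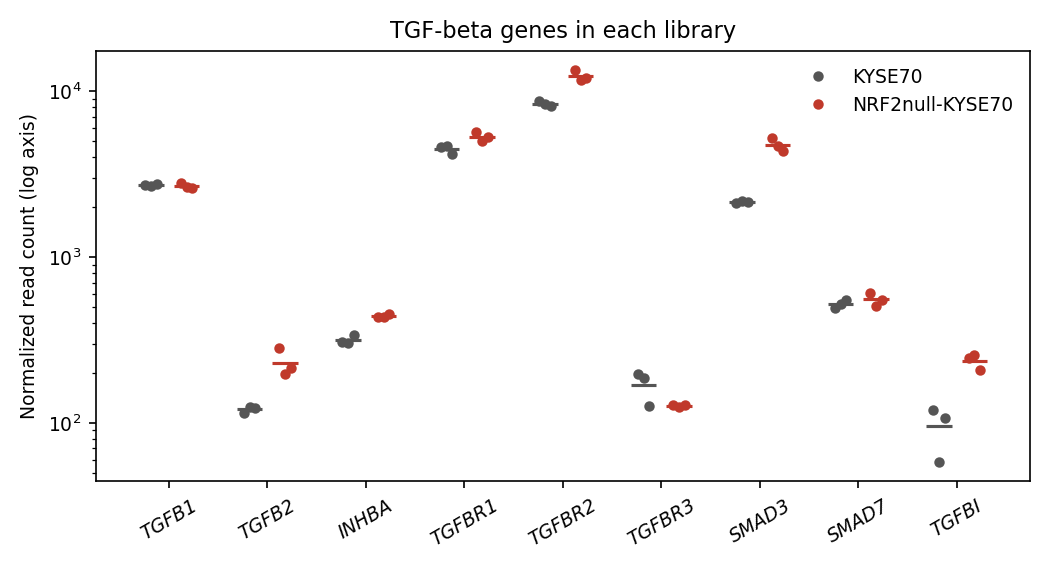
Normalized read counts (log axis) of the 9 TGF-beta genes in each library, with KYSE70 in grey, NRF2null-KYSE70 in red and a bar at the mean of the 3 libraries. The libraries of the lines are fully apart for *TGFB2*, *INHBA*, *TGFBR1*, *TGFBR2*, *SMAD3* and *TGFBI* and overlap for *TGFB1*, *TGFBR3* and *SMAD7*.

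Sequence upstream of the start sites is shown for 4 genes that cover the range of outcomes. *SMAD3* and *TGFBI* were past the threshold, *TGFB2* was just short of it and *SMAD7*, a known direct target of SMAD3, was not called. Each run is the 250 bases before the start of the canonical transcript (RefSeq, GRCh38.p14), read 5′ to 3′ on the strand of the gene. Capitals mark every match on either strand to the SMAD box CAGAC, the AP-1 site TGANTCA, the antioxidant response element TGACNNNGC bound by NRF2 or the TEAD site CATTCC, motifs that do not overlap in these 4 windows.
SMAD3, plus strand, chr15:67065352-67065601: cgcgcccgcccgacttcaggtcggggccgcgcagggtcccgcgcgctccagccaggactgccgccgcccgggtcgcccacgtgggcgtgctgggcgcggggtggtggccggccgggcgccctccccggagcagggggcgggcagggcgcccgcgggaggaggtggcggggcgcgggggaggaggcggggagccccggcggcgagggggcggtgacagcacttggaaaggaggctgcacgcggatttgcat
TGFBI, plus strand, chr5:136028738-136028987: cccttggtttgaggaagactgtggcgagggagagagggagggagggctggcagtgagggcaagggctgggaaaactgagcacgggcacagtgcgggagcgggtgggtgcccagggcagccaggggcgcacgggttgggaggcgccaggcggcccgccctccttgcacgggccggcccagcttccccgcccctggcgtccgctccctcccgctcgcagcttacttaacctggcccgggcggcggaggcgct
TGFB2, plus strand, chr1:218345086-218345335: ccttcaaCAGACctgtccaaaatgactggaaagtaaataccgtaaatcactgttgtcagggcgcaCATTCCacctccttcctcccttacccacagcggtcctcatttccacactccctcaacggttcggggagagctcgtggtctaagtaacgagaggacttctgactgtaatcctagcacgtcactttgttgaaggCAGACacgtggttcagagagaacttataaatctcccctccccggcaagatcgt
SMAD7, minus strand, chr18:48950966-48951215: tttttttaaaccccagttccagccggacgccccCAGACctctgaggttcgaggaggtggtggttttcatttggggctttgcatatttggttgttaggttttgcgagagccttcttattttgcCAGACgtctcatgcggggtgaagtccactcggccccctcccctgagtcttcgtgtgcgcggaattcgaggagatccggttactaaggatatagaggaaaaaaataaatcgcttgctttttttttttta

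The window of *TGFB2* held 2 SMAD boxes, 243 and 53 bases before the start, and 1 TEAD site, 185 bases before it. That of *SMAD7* held 2 SMAD boxes, 217 and 128 bases before the start. *TGFBR1* held 1, in the opposite orientation and 213 bases before the start, and the windows of the other 6 members held none of the 4 motifs. Only the window at the canonical start was searched. RefSeq windows existed for 5 starts of *SMAD3*, 3 of *SMAD7*, 8 of *TGFBR1* and 2 of *TGFBR2*. Over 34788 RefSeq windows of the same length, 38% held a SMAD box, 6.59% an AP-1 site, 10.9% an antioxidant response element and 11.9% a TEAD site. The windows also differed in base composition, from 42.8% G and C for *INHBA* and 48% for *SMAD7* to 80.8% for *SMAD3*. A match describes letters in the window and not a bound site.

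Of the ligand genes, *TGFB1* encodes the main TGF-beta of epithelium and stroma and lies at 41301587 to 41353922 on chromosome 19 (hg38). Its normalized counts were 2719, 2680 and 2756 in the KYSE70 libraries and 2788, 2657 and 2612 in the NRF2null-KYSE70 libraries. The KYSE70 range lay within that of NRF2null-KYSE70, and the spread within NRF2null-KYSE70 (SD 91.5) was larger than the difference of the means. The log2 fold change was -0.018 (limma adjusted p = 0.798, SE 0.054), with a 95% interval from -0.13 to 0.10. Exons of *HNRNPUL1*, on the other strand, cover 6.59% of the exon bases of *TGFB1*, and *HNRNPUL1* had means of 17797 and 16841 normalized counts in KYSE70 and NRF2null-KYSE70, so reads of that stretch could not be assigned without strand.

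*TGFB2* encodes a TGF-beta that depends on the co-receptor TGFBR3 to reach the type II receptor efficiently. It lies at 218345336 to 218444619 on chromosome 1. Its normalized counts were 115, 124 and 123.4 in KYSE70 and 283, 196 and 213 in NRF2null-KYSE70. Every NRF2null-KYSE70 library was above every KYSE70 library, and the first of them stood well above the other two. Its log2 fold change was 0.91 (limma adjusted p = 0.000598, SE 0.17), with a 95% interval from 0.54 to 1.29, so the data did not place the gene on either side of a doubling. Without NRF2null-KYSE70 library 1 the value was 0.76, and without NRF2null-KYSE70 library 2 it was 1.02 and past the threshold. The genes *TGFB2-AS1* and *TGFB2-OT1*, which share 11.6% and 22.7% of the exon bases of *TGFB2*, had no more than a mean of 5.43 normalized counts in either line.

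*INHBA* encodes the subunit of activin A, a ligand of the same superfamily that signals through activin receptors to the same SMAD2 and SMAD3. The gene lies at 41667168 to 41705834 on chromosome 7. Its normalized counts were 308, 305 and 341 in KYSE70 and 436, 435 and 452 in NRF2null-KYSE70. The groups were apart, and the NRF2null-KYSE70 libraries lay close together (SD 9.42, n = 3). The log2 fold change was 0.47 (limma adjusted p = 0.00206, SE 0.11).

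Both signalling receptor genes were higher in NRF2null-KYSE70. *TGFBR2*, the type II receptor that binds ligand first, lies at 30606601 to 30694142 on chromosome 3. It had 8747, 8377 and 8177 normalized counts in KYSE70 and 13411, 11699 and 12037 in NRF2null-KYSE70. The lowest NRF2null-KYSE70 library was well above the highest KYSE70 library. Its log2 fold change was 0.55 (limma adjusted p = 3.03e-06, SE 0.056), with a 95% interval from 0.43 to 0.67. *TGFBR1*, the type I receptor kinase (chromosome 9, 99104038 to 99154192), had 4624, 4686 and 4196 normalized counts in KYSE70 and 5686, 5048 and 5280 in NRF2null-KYSE70. Its groups were apart by a small margin. At 0.25 its log2 fold change was the smallest of those with an adjusted p under 0.05 (limma adjusted p = 0.00378, SE 0.061).

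*TGFBR3*, or betaglycan, is a co-receptor without kinase activity that presents TGF-beta 2 to the type II receptor (chromosome 1, 91680343 to 91906335). It had 196, 187 and 125 normalized counts in KYSE70 and 128, 125 and 128 in NRF2null-KYSE70. The third KYSE70 library lay at the NRF2null-KYSE70 level while the other two were above it. Its log2 fold change was -0.39 (limma adjusted p = 0.104, SE 0.19), with a 95% interval from -0.81 to 0.03. Without KYSE70 library 3 it was -0.59 with a limma adjusted p of 0.0157, still short of the cut-off on the fold change. Without KYSE70 library 1 or 2 it was -0.27 or -0.30 (limma adjusted p = 0.317 and 0.282). The result by the adjusted p alone thus depended on 1 library.

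*SMAD3*, the receptor-activated SMAD that carries the signal to DNA, lies at 67063763 to 67195173 on chromosome 15. Its normalized counts were 2124, 2188 and 2162 in KYSE70, which differed by little (SD 32.3, n = 3). They were 5208, 4673 and 4370 in NRF2null-KYSE70 (SD 425, n = 3). Each NRF2null-KYSE70 library held about as much again as the highest KYSE70 library or more. The log2 fold change was 1.13 (limma adjusted p = 1.47e-08, SE 0.065), with a 95% interval from 0.99 to 1.28. It stayed between 1.07 and 1.19 over fits that each lacked 1 of the 6 libraries. Relative to the median of its chromosome arm it was 0.81, short of the cut-off. As for *TGFB2* and *TGFBI*, the interval of *SMAD3* reached below a doubling, and the treat test of limma, which asks for a change beyond 1 on the log2 scale, called 0 members.

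*SMAD7* lies at 48919853 to 48950965 on chromosome 18. Its normalized counts were 491, 522 and 553 in KYSE70 and 607, 510 and 550 in NRF2null-KYSE70. The groups overlapped. Its log2 fold change was 0.09 (limma adjusted p = 0.48, SE 0.10), and its 95% interval from -0.13 to 0.31 left out a doubling.

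*TGFBI* encodes a secreted matrix protein that binds integrins and collagen and is named for its induction by TGF-beta (chromosome 5, 136028988 to 136063818). It had 120, 58.1 and 108 normalized counts in KYSE70 and 245, 256 and 209 in NRF2null-KYSE70. The groups were apart, and the second KYSE70 library, with 64 reads, was the lowest of the 6. The log2 fold change was 1.37 (limma adjusted p = 0.000385, SE 0.25), the largest among the members and the least precise, with a 95% interval from 0.83 to 1.90. It was 1.05 without KYSE70 library 2 and 1.56 without KYSE70 library 1.

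Members just inside the threshold on the fold change and just outside it were *SMAD3*, at 1.13, and *TGFB2*, at 0.91.

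Ratios between members, taken within each library on the scale of normalized counts per kb of exon, showed which genes moved apart. They were chosen after the values were seen and were not tested. *SMAD3* stood at 1.71, 1.65 and 1.54 times *SMAD7* in KYSE70 and at 3.38, 3.61 and 3.13 times in NRF2null-KYSE70. The 2 sets of ratios were apart, with RNA of the activating SMAD gaining on that of the inhibitory one. *TGFB1* exceeded *TGFB2* by 43.9, 39.98 and 41.4 times in KYSE70 and by 18.3, 25.1 and 22.7 times in NRF2null-KYSE70. The ratio of *TGFBR2* to *TGFBR1* was 2.21, 2.09 and 2.27 in KYSE70 and 2.75, 2.70 and 2.66 in NRF2null-KYSE70. On this scale, RNA of the type II receptor gene was the more abundant of the pair in all 6 libraries.

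The order of the members by level was compared within each line as normalized counts per kb of exon. Exon length was the union of all annotated exons of a gene, 7717 bases for *TGFBI*. It can exceed the length of the transcript made, so the order of genes close in level rests on the length used. *TGFBR2* was highest in both lines, at 1231 ± 42.3 per kb (SD, n = 3) in KYSE70 and 1808 ± 132 per kb (SD, n = 3) in NRF2null-KYSE70, above 86.9% and 91.03% of the genes tested. *TGFB1*, *TGFBR1*, *SMAD3*, *SMAD7* and *INHBA* followed in this order in both lines, with no overlap between neighbours. *SMAD3* moved from 216 ± 3.22 to 475 ± 42.4 per kb (n = 3 per line, SD), that is, from above 52.0% of genes to above 68.3%. *TGFB2* was next in both lines, and the last 2 places, held by *TGFBR3* and *TGFBI*, were exchanged. In KYSE70, *TGFB2*, *TGFBR3* and *TGFBI* had 19.97, 19.7 and 12.3 per kb, and neighbours overlapped in their libraries. In NRF2null-KYSE70, *TGFB2* and *TGFBI*, at 38.2 and 30.7 per kb, overlapped with each other, and *TGFBR3*, at 14.8 per kb, was below both. The ligand *TGFB1* and its 2 signalling receptors were therefore the abundant members, and the 3 genes at the foot of the order had between 64 and 279 reads in any library.

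**Figure D2:**
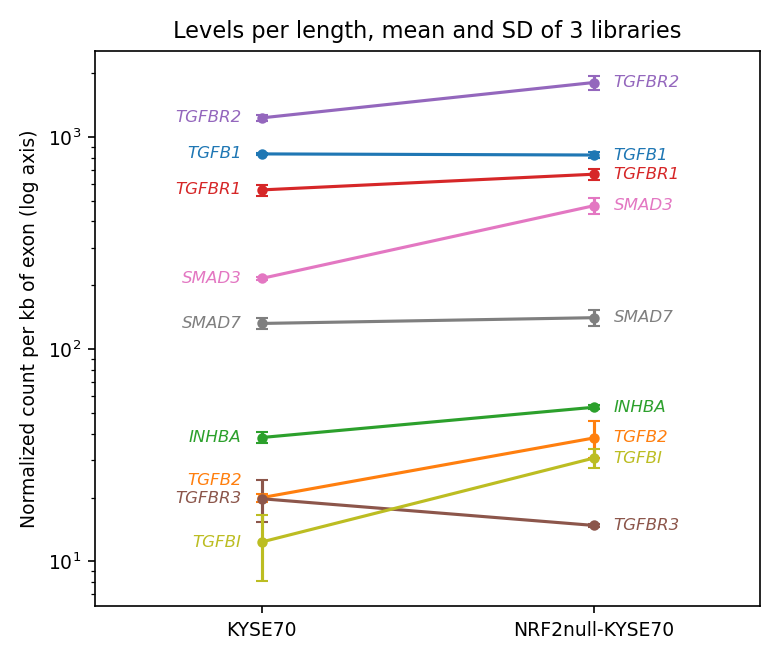
Level of each TGF-beta gene as normalized count per kb of exon (log axis, mean with SD of 3 libraries) in KYSE70 and NRF2null-KYSE70, joined by a line per gene. The upper 6 genes keep their order, *SMAD3* rises from 216 to 475 per kb, and *TGFBI* passes *TGFBR3*. Lengths are the union of all annotated exons of a gene.

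Genes near the members were examined because whole chromosome arms differed between the lines. *TGFBR2* is on 3p, an arm on which 316 expressed protein-coding genes had a median of -0.48 (log2 fold change), and the median of the 40 such genes around it was -0.38. Only 2 of these 40 neighbours had a higher log2 fold change than *TGFBR2*. Relative to its arm, *TGFBR2* stood at 1.03, past the cut-off on the fold change. *SMAD3* is on 15q, where the arm median was 0.33 and the median of its 40 neighbours 0.31. Relative to the arm its log2 fold change was 0.81, which kept an adjusted p under 0.05 and fell short of the cut-off on the fold change, and 1 of the 40 neighbours was higher.

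*TGFBI* on 5q was higher than all 40 of its neighbours, whose median was 0.13, and *TGFB2* on 1q was higher than 37 of 40. The arm of *SMAD7*, 18q, had a median of 0.03, but its 40 nearest genes had one of -0.39, and *SMAD7* was higher than 27 of them. For *TGFBR3* on 1p, 34 of 40 neighbours were higher, with a median of 0.23. *INHBA* and *TGFBR1* lay above 34 and 28 of their neighbours. *TGFB1*, at 24 of 40, was near the middle. The part of arm-wide differences in the members' values was not tested.

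**Figure D3:**
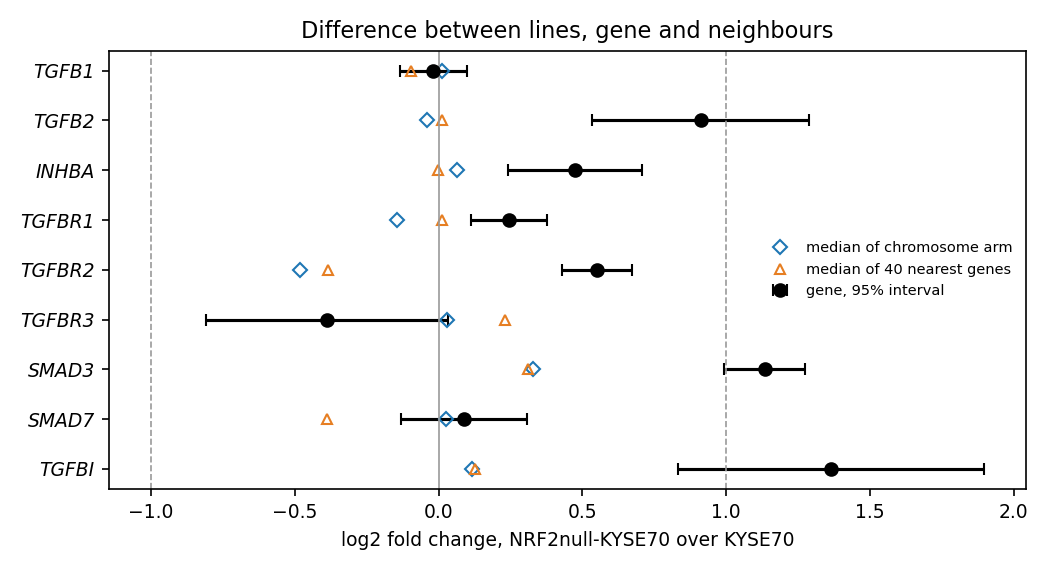
Log2 fold change of NRF2null-KYSE70 over KYSE70 for each TGF-beta gene (point with 95% interval from limma), with the median of its chromosome arm (diamond) and of the 20 expressed genes on each side (triangle); dashed lines mark -1 and 1. *TGFBR2* lies at 0.55 against an arm median of -0.48, and *SMAD3* at 1.13 against 0.33.

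The rest of the superfamily was described with 6 lists that held 139 further genes. Of these, 103 were expressed enough to be tested, 29 were higher and 11 lower past the threshold, and 17 had no read in any library. The share past the threshold was 38.8% of those tested, beside 14.7% of all genes. A gene near 0 reads in 1 line enters the test only through the other line. Leaving out genes at the floor, chosen after seeing the data, still left 103 tested and 39 past the threshold. Over all genes it left 15867 tested and 2197 past it. The lists were chosen with earlier results of these data known, so this share is a description. The median log2 fold change over the 103 genes was 0.16.

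Genes that store and release latent TGF-beta were mostly higher in NRF2null-KYSE70. Of 12 tested, 5 were higher past the threshold, as were 7.23% of all genes tested. The lowest log2 fold change among the 12 was -0.98, with a median of 0.87. Another 3 genes of the list were too low to be tested. One of them, *LRRC32*, had 43 reads in the KYSE70 libraries together and 2 in the NRF2null-KYSE70 libraries. It was named after its values were seen. *THBS1*, whose product thrombospondin 1 can release TGF-beta from its latent form, had 39324, 34432 and 34432 normalized counts in KYSE70 and 356950, 310005 and 301891 in NRF2null-KYSE70. This was a log2 fold change of 3.16 (limma adjusted p = 4e-12, SE 0.072), on 15q. *LTBP2*, of the latent TGF-beta binding protein family, rose from 61.8 ± 6.95 to 407 ± 54.2 normalized counts (n = 3 per line, SD). *FBN1*, the fibrillin to which such proteins attach, rose from 40.1 ± 25.3 to 190 ± 18.5 (n = 3 per line, SD). Outside the naming rule, and chosen after its values were seen, *LTBP1* had a log2 fold change of 1.67. *LTBP4* had one of -0.81, with an adjusted p under 0.05 and short of the cut-off on the fold change.

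Of the 15 other ligand genes tested, 7 were higher and 1 was lower past the threshold, with a median log2 fold change of 0.25. Over all genes tested, 7.23% were higher and 7.43% lower past it. Among the 7, *GDF5* and *BMP5* entered the test only through NRF2null-KYSE70. They averaged 8.44 and 8.11 normalized counts in KYSE70 and 21.9 and 103 in NRF2null-KYSE70, and the *GDF5* libraries of the lines overlapped. Both were named after their values were seen. *INHBE*, an activin subunit, had 336, 326 and 304 normalized counts in KYSE70 and 2530, 2529 and 2331 in NRF2null-KYSE70 (log2 fold change 2.93, limma adjusted p = 1.81e-11, SE 0.079). *GDF15*, a stress-induced member of the superfamily, rose from 383 ± 34.3 to 1496 ± 119, and *BMP4* from 310.2 ± 34.7 to 642 ± 74.3 (n = 3 per line, SD). *BMP6* fell from 1122 ± 72.1 to 374 ± 68.5 (n = 3 per line, SD). The third TGF-beta gene, *TGFB3*, had 203 and 187 normalized counts on average in KYSE70 and NRF2null-KYSE70, with a limma adjusted p of 0.537.

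Secreted antagonists went both ways. Of 8 tested, 3 were higher and 1 was lower past the threshold, beside 7.23% higher and 7.43% lower over all genes tested. *FST*, or follistatin, which binds and blocks activin, had 914, 925 and 898 normalized counts in KYSE70 and 4756, 4472 and 4388 in NRF2null-KYSE70 (log2 fold change 2.31, limma adjusted p = 9.51e-12, SE 0.059). For *INHBA*, a target of follistatin as part of activin A, the value in the same libraries was 0.47, and the difference between the 2 genes was not tested. *SOSTDC1*, a BMP and WNT antagonist, rose from 4133 ± 205 to 13093 ± 384 (n = 3 per line, SD). *NOG*, or noggin, had 1, 14 and 1 reads in the KYSE70 libraries, and 602 reads in the 3 NRF2null-KYSE70 libraries together. With means of 4.88 and 207 normalized counts in KYSE70 and NRF2null-KYSE70, it was tested and named only through its level in NRF2null-KYSE70. *SOST*, another antagonist of BMP and WNT signalling, fell from 441 ± 8.92 to 14.4 ± 4.71 (n = 3 per line, SD).

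Among 13 other receptors and co-receptors tested, the highest log2 fold change was 0.16, and 6 genes were lower with an adjusted p under 0.05. By the same cut-off, 28.3% of all genes tested were lower. By limma the threshold was passed by 3, all lower, where 7.43% of all genes tested were lower past it. *RGMA*, a BMP co-receptor, had 1284, 1144 and 999.7 normalized counts in KYSE70 and 441, 363 and 332 in NRF2null-KYSE70 (log2 fold change -1.59, limma adjusted p = 2.11e-07, SE 0.12). The other 2, *ACVR1C* and *TDGF1*, fell from 92.7 and 23.2 normalized counts to 24.6 and 3.804 and were named after their values were seen. The *TDGF1* libraries of the lines overlapped, and *TDGF1* entered the test only through its level in KYSE70. The median log2 fold change of the list was -0.26.

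Of 21 SMADs and SMAD regulators tested, 2 were higher and 1 was lower past the threshold, and the median log2 fold change was 0.04. This share, 3 of 21, was near the background over all genes. *SKIL*, a repressor of SMAD complexes, had 1450, 1627 and 1541 normalized counts in KYSE70 and 4199, 4038 and 3998 in NRF2null-KYSE70 (log2 fold change 1.41, limma adjusted p = 9.87e-10, SE 0.060). *PMEPA1*, which keeps SMAD2 and SMAD3 from the receptor, rose from 549.9 ± 73.4 to 1323 ± 152 (n = 3 per line, SD). *TGIF2*, a SMAD corepressor, fell from 661 ± 42.4 to 278 ± 18.7 (n = 3 per line, SD). Among the partners of *SMAD3*, *SMAD2* was higher by 0.32 on the log2 scale (limma adjusted p = 0.000127) and *SMAD4*, the common partner, fell by 0.72 (limma adjusted p = 6.75e-07). Both were named after their values were seen, and their difference from *SMAD3* was not tested.

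Genes known to respond to TGF-beta, many of which also respond to other pathways, made the largest list. Of 34 tested, 12 were higher and 5 lower past the threshold, with a median log2 fold change of 0.57. Over all genes tested, 7.23% were higher and 7.43% lower past it. *CCN2*, a matricellular growth factor, had 10.7, 13.6 and 11.6 normalized counts in KYSE70 and 1648, 1543 and 1355 in NRF2null-KYSE70. Its log2 fold change of 6.87 (limma adjusted p = 9.51e-12, SE 0.17) was the largest of the 103. *TIMP3*, an inhibitor of matrix proteases, rose from 1924 ± 153 to 17905 ± 1745, and *MMP2*, a matrix protease, from 1324 ± 99.7 to 10848 ± 691 (n = 3 per line, SD).

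Other genes of the same list were lower in NRF2null-KYSE70. *COL7A1*, the collagen of anchoring fibrils, fell from 10442 ± 1163 to 2976 ± 761 normalized counts (n = 3 per line, SD), and it lies on 3p. *ID3*, an inhibitor of DNA binding that TGF-beta can repress and BMPs induce, fell from 13082 ± 839 to 5570 ± 786 (n = 3 per line, SD). *ANGPTL4*, a secreted regulator of lipase, fell from 330 ± 27.7 to 107 ± 11.4 (n = 3 per line, SD). *COL1A1*, also a fibroblast marker, had a log2 fold change of -1.16 (limma adjusted p = 1.31e-06) and was named after its value was seen. *FN1* was near the limit of the test, with 18.03 and 15.8 normalized counts on average in KYSE70 and NRF2null-KYSE70 (limma adjusted p = 0.93).

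**Figure D4:**
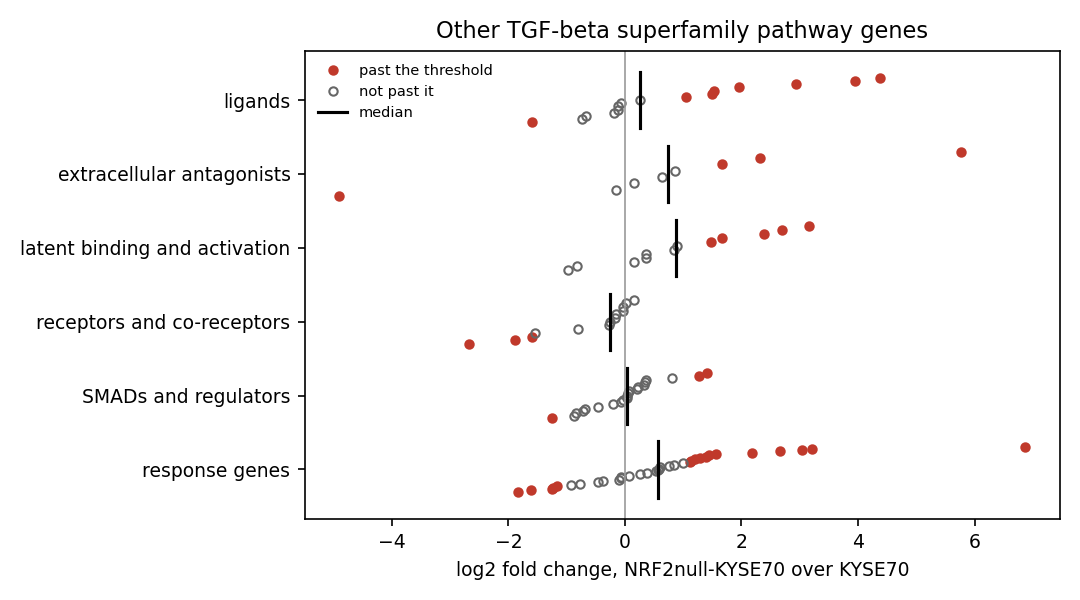
Log2 fold change of NRF2null-KYSE70 over KYSE70 for each tested gene of 6 lists of TGF-beta superfamily genes, 1 point per gene, filled where past the threshold, with a black line at the list median. Latent binding and response genes lie mostly above 0, with medians of 0.87 and 0.57, whereas receptors and co-receptors have a median of -0.26. The members, among them *TGFBR1*, *TGFBR2* and *TGFBR3*, are not in these lists.

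Genes whose levels followed those of *SMAD3* and *TGFBI* most closely over the 6 libraries were found by Pearson correlation of log2 values among 11996 genes with a mean of at least 100. With 6 libraries in 2 groups, any gene that differs between the lines correlates, so these values are a description. For *SMAD3* the nearest were *DLG1*, *ARIH1* and *PBXIP1* (r of at least 0.999), and 2276 genes had an r over 0.95. *ARIH1* is on the same chromosome as *SMAD3*. For *TGFBI* they were *RBMS1*, *FBLN5* and *ADAMTS15* (r = 0.999, 0.997 and 0.995), with 154 genes over 0.95.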

How the data were processed

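After quality filtering, the authors mapped reads to hg38 with STAR 2.6.90c, counted them per gene with featureCounts 1.5.1 and normalized them with DESeq2. What was deposited is thus a signal, the normalized count, in which each library had its own size factor. Strand settings and the treatment of multi-mapping reads were not given in the sources used here. Dividing by what 1 read was worth (0.889 to 1.14) gave back whole reads, and the share that came out whole within 0.1 was 100% in each library. Libraries are numbered in column order, since column names gave the line alone.

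Lines were compared with limma 3.58.1 (lmFit, then eBayes with trend) on log2(normalized count + 1), a scale that understates the change of low genes. Genes averaging at least 10, of which there were 15994, were tested. P-values were two-sided, with Benjamini-Hochberg adjustment over all of them, and the script was tested on simulated data. Each fold change is NRF2null-KYSE70 relative to KYSE70. On the recovered reads, DESeq2 1.42.0 called 2341 genes and edgeR 4.0.16 called 2350, where limma called 2344. Positions and exon lengths were taken from GENCODE v44 (hg38), which held 58472 of the 58884 identifiers, and arms were divided at approximate centromere positions. For arm and neighbour medians, protein-coding genes averaging 50 normalized counts or more were used. Motifs were searched in RefSeq windows on both strands. From each list, up to 3 rises and 3 falls past the threshold were named, the largest among genes averaging 100 or more whose lines did not overlap. The members and lists were chosen with earlier results of these data known. Some genes of the lists are counted but not reported here by name.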

Additional observations from a re-analysis of the deposited data

How the results depend on the processing

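*TGFBI* and *SMAD3* made up the 2 members past the threshold, and this count was the same or within 1.5 times under every alternative run but 2. The treat test of limma, which asks for a change beyond 1 on the log2 scale, called 0 members, 970 of all genes and 27 of the listed pathway genes. Without a cut-off on the fold change, limma called 6 members, 9206 of all genes and 75 of the listed genes. A filter at a mean of 50 called 1511 of all genes. Setting each chromosome arm to a median of 0 (arm-centring) called 2 members but exchanged 1: *SMAD3* went to 0.81 and *TGFBR2* to 1.03. Leaving out each library in turn called 2 to 3 members, 2228 to 2346 of all genes and 38 to 40 listed genes, with *NFE2L2* between -0.75 and -0.67. *TGFB2* reached 1.02 without NRF2null-KYSE70 library 2. *TGFB1* ranged from -0.045 to 0.00197 when libraries were left out, changing sign without NRF2null-KYSE70 library 3. The adjusted p of *TGFB2*, *INHBA*, *TGFBR1*, *TGFBR2*, *SMAD3* and *TGFBI* stayed under 0.05 in all 19 alternatives run for each, and total scaling moved all genes by a median of -0.075. The cause of these differences was not tested. Leaving out genes at the floor was chosen after seeing the data. No paired analysis was possible because the columns of the table carry no replicate numbers.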
